A study of Rattus norvegicus with 172 samples.

Results

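The mitochondrial respiratory chain was followed in rat spinal cord through 66 genes, out of 14218 genes with a probe set of their own on the array. Members are all genes whose annotated symbol begins with Ndufa, Ndufb, Ndufc, Ndufs, Ndufv, Uqcr, Cox4, Cox5, Cox6, Cox7 or Cox8, a rule on names that uses no measured value. Of the 66, 63 passed the filter on dim genes in every fit. They comprise 6 core and 28 accessory subunits of complex I, 6 complex I assembly factors, 7 genes of complex III, 10 complex IV subunits without tissue restriction, 5 tissue-restricted isoforms of complex IV subunits and Cox7a2l, a factor that joins complexes III and IV. Cox4i2, Cox7b2 and Cox6c-ps1 were not tested. Their normal cord levels of 4.83 to 5.29, 4.05 to 4.26 and 5.96 to 6.37 on the log2 scale lay below the dim threshold of 6.55.

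Complex I takes electrons from NADH, complex III passes them from ubiquinol to cytochrome c, and complex IV, cytochrome c oxidase, hands them to oxygen. The protons pumped on the way drive ATP synthase. Core subunits of complex I carry the flavin and iron-sulfur clusters, accessory subunits surround them, and assembly factors help to build the complex without being part of it. In nervous tissue the chain supplies most of the ATP that neurons spend on ion pumping and transmission. Several complex IV subunits have an isoform with a narrower range: Cox6a2, Cox7a1 and Cox8b are known from heart and skeletal muscle, Cox6b2 from testis, and Ndufa4l2, a paralogue of Ndufa4, as a gene induced by low oxygen through HIF-1.

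All rats, those of normal cord included, were female Wistar rats given as 2 months old at every day. In the injured rats the cord had been cut through at the T7-8 level, with 5 mm of cord removed. In the lesion control arm nothing was placed in the gap, in the NT-3 tube arm a chitosan tube loaded with neurotrophin-3 carriers, and in the tube alone arm an empty chitosan tube. Blocks of 5 mm, with dura and meninges, were taken rostral to the gap, from the gap itself (called the lesion segment in the labels) and caudal to it, at days 1, 3, 10, 20, 30, 60 and 90. Day 60 is given by the sample labels, while the design text does not list it. The gap was sampled from day 3, and in the tube alone arm at day 3 only. Each of the 164 injured arrays holds RNA pooled from 4 animals. They form 55 groups of 3 arrays, except tube alone rostral day 10 with 2. Normal cord, from the same level of rats without a lesion, has 3 arrays, and 5 further arrays carry a universal rat reference RNA, made from cell lines and run by the submitters to follow batch variation. The gap holds no cord of its own after surgery, so a difference between gap and normal cord compares different tissues. The labels give biological replicates, and a pool size is listed for the injured arrays only. Each p-value rests on 1 residual SD per gene, taken over all groups of a fit. It thus mostly measures the spread between injured pools, not that of the normal arrays alone.

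Values are log2 RMA signals, and a difference of 1 is a 2-fold change. A gene is called where the Benjamini-Hochberg adjusted p of limma, taken over all genes tested in the fit (11479 to 11922), is under 0.05. Levels are not compared between genes, since probe sets differ in brightness. Normal cord expressed the markers of its own cells: neurofilament light chain (Nefl) lay at 13.91 to 14.07, the myelin gene Mog at 12.17 to 12.58 and the astrocyte gene Gfap at 13.76 to 13.88, against 4.37 to 5.24, 5.2 to 6.36 and 5.01 to 5.52 on the reference RNA. All 3 normal arrays serve every comparison with normal cord, so these comparisons share their control. Array medians lay between 7.1 and 7.25, and no pair of arrays was identical. Arrays whose mean over 15 skeletal muscle markers was more than 1 log2 unit above normal cord numbered 8 rostral, 23 gap and 5 caudal. Of the 23, 17 were among the 18 lesion control gap arrays and 6 among the 18 NT-3 tube gap arrays.

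The 5 reference arrays show how far these genes move between arrays when the RNA is the same. The 61 members above the dim threshold there had a median SD of 0.343, against 0.1145 over 10595 genes, and 52 of the 61 exceeded that median. Only 4.71% of all genes varied more than the median member. The median of 52 common genes (the subunits of complexes I, III and IV without tissue restriction, and Cox7a2l), called the common subunits below, deviated from its own mean by 0.20, 0.01, 0.25, 0.12 and -0.61 on reference arrays 1 to 5, a range of 0.865. Reference array 5 held the lowest value of 53 of the 61 members. Accessory subunits of complex I varied most among the complex I classes, with a median SD of 0.387, against 0.202 for core subunits and 0.154 for assembly factors.

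**Figure D1:**
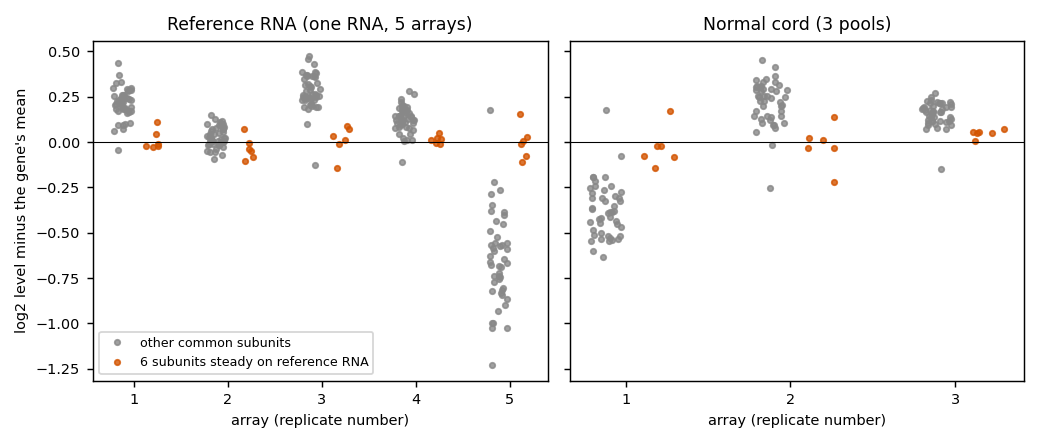
Technical spread of the respiratory chain genes on the 5 arrays of one reference RNA. SDs are in log2 units; the median member varied by 0.343 and the median gene by 0.1145, and the common subunits fell by 0.61 on array 5.

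The normal cord arrays also differed in these genes. They are labelled biological replicates, so technical and biological spread cannot be told apart there. The median of the common subunits lay at -0.365, 0.22 and 0.16 around the normal mean on replicates 1, 2 and 3. A drift score, built from 10534 genes that are no members along the main direction of variation of the reference arrays (71.2% of their variance), was -11.63, 8.46 and 3.18 on these arrays. Over the injured arrays the common-subunit median ran with that score: r was 0.924 over the 125 stump arrays (rostral and caudal) and 0.936 over the 39 gap arrays, as a description over arrays that share their normalization. What the score follows on cord arrays, be it technical or biological, was not tested. A fit with the score as a covariate can therefore also take out differences of the tissue.

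Of the members, 9 varied no more on reference RNA than the median gene: Ndufs1, Ndufv1, Ndufa9, Uqcrc1, Uqcrfs1, Cox7a2l, Ndufaf1, Ndufaf4 and Ndufaf7. They were picked on the reference arrays after the data had been seen. The 6 of them that are not assembly factors are used here as the steady genes. Uqcrc2 fell just outside, at an SD of 0.1155. Their median deviated by -0.04 to 0.02 on the reference arrays and stood at -0.05, -0.01 and 0.05 on the normal arrays. Their r with the drift score was 0.154 in the stumps and 0.593 in the gap. Members that are not among the 9 are given below with that technical spread in mind.

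Promoters of 59 of the 66 members were found in RefSeq (build GRCr8), as the 250 bases before each annotated start. Those of 5 members that the results turn on are printed 5′ to 3′ on the gene's strand: Ndufs1 and Cox8a as subunits present in all tissues, Ndufaf4 as an assembly factor that rose early, and Cox8b and Ndufa4l2 as tissue isoforms. Capitals mark an ETS motif (CCGGAAG, or CTTCCGG on the other strand) in Ndufs1 and Cox8a, a YY1 motif (ATGGCGGC, or GCCGCCAT on the other strand) in Ndufs1, an NRF1 motif in Ndufaf4 and TATAAA in Cox8b. The windows are chr9:72073606-72073855 on the minus strand, chr1:213833624-213833873 on the minus strand, chr5:43401545-43401794 on the plus strand, chr1:205408274-205408523 on the minus strand and chr7:65241919-65242168 on the plus strand, in the order printed.
Ndufs1: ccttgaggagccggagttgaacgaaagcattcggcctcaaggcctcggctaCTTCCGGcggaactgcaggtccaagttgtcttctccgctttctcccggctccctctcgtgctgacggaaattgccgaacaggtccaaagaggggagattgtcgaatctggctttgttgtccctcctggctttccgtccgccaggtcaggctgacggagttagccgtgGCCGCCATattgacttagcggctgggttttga
Cox8a: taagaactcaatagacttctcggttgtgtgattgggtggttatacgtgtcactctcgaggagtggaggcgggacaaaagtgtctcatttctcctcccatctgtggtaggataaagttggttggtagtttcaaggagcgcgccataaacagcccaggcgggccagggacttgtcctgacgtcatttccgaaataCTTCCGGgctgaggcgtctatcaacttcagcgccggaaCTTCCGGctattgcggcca
Ndufaf4: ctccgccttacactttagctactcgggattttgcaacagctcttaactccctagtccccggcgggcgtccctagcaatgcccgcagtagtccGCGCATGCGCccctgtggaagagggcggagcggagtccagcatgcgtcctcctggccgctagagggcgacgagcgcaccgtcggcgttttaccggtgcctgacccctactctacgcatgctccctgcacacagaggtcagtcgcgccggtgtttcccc
Cox8b: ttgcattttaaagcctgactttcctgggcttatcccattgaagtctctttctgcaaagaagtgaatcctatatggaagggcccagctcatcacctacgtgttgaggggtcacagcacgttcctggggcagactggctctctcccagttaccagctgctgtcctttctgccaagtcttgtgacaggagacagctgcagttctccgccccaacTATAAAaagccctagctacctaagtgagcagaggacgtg
Ndufa4l2: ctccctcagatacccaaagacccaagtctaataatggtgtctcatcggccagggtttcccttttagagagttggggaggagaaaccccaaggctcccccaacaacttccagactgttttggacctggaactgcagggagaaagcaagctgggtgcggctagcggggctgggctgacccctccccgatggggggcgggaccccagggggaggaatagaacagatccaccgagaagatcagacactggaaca
NRF1 and ETS-family factors such as GABP are known regulators of respiratory chain genes. The NRF1 motif was present in 8 of the 59 member promoters (13.56%) and in 4.17% of 27457 promoters, searched on both strands. The ETS motif was present in 14 (23.73%) against 7.74%, among them Ndufs1, Ndufs8, Cox8a, Cox5b and Uqcrc2. YY1 letters were found in 1 member, Ndufs1 (1.69% against 1.15%). The hypoxia-response core (ACGTG or GCGTG) was in 31 (52.54%) against 37.88%, and Ndufa4l2 was not among them. MEF2 letters were in Cox5b and Cox6a2 (3.39% against 3.43%), and TATAAA in 5 members (8.47% against 13.09%). The ERR motif TCAAGGTCA was in none of the 59 and in 0.37% of all promoters. A window without a match says only that these letters are not in these 250 bases. The promoters of 6 tissue isoforms, among them the untested Cox7b2, held 4 to 8 CpG dinucleotides. The other 53 members held 5 to 33 with a median of 15, so the ranges overlap. The median over all promoters was 6.

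In the gap of lesion control rats most subunits of complexes I, III and IV were lower than in normal cord from day 10, and fewer were called at day 3. At day 3, 22 of 63 members were called lower and 4 higher, where 34.8% and 42.3% of all genes were. That period is 1 group of 3 arrays and the later ones average several groups, so counts called differ in precision between periods. At days 10 to 30, 47 were lower and 2 higher, against 36.2% and 41.7%. At days 60 to 90, 50 were lower and 1 higher, against 36.6% and 35.6%. The median difference over the members was -0.29, -0.69 and -0.67 at these times, beside 0.11, 0.06 and -0.01 over all genes tested. The day 3 count depended on the fit: it was 36 lower and 4 higher with array weights, 54 and 4 with the drift score as a covariate (an alternative added after the data were seen), and 15 and 2 on the 1 array not high in muscle genes. In bulk tissue, fewer cells of a type and less RNA per cell cannot be told apart.

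Of the core subunits of complex I, 5 of 6 were called lower at day 3 and 6 of 6 later, with medians of -0.67, -0.90 and -0.80. Of all genes, 34.8%, 36.2% and 36.6% were called lower in the 3 periods. Ndufs1, the largest core subunit, which carries iron-sulfur clusters of the electron-input module, lay at 11.16, 10.77 and 11.04 on normal replicates 1 to 3. In the lesion control gap it was 10.23, 10.37 and 10.52 at day 3, and 9.67 to 10.03 with a median of 9.88 over the 9 arrays of days 10 to 30. All 18 lesion control gap arrays were below every normal array. The differences were -0.62 ± 0.10 (SE), -1.13 ± 0.08 and -0.96 ± 0.09 at day 3, days 10 to 30 and days 60 to 90, each called. Ndufv1, which holds the flavin and binds NADH, fell from 11.43, 11.53 and 11.56 in normal cord to 10.76, 10.83 and 10.88 at day 3. Its differences of -0.68 ± 0.08, -0.77 ± 0.07 and -0.67 ± 0.07 were about level over time. Ndufv2, its partner in the electron-input module, fell by 0.72, 0.78 and 0.76. Ndufs3, of the module that connects to the quinone site, changed by -0.79 ± 0.14, -1.02 ± 0.12 and -1.0 ± 0.12. Ndufs7, which holds the last iron-sulfur cluster before ubiquinone, changed by -0.65 ± 0.19, -1.06 ± 0.15 and -0.83 ± 0.16. Ndufs8 was not called at day 3 (-0.30 ± 0.18) and fell later, by 0.51 and 0.61.

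Among accessory subunits of complex I, 8 of 28 were called lower at day 3 and 22 at each later period, with medians of -0.31, -0.74 and -0.72. The shares of all genes called lower were 34.8%, 36.2% and 36.6%, so the day 3 count does not exceed that of all genes. Ndufa8 had the lowest fitted difference of the 63 members at days 10 to 30 and at days 60 to 90. It lay at 12.94, 13.23 and 13.23 in normal cord, at 12.12, 12.15 and 12.16 at day 3, and at 11.31 to 12.04 over days 10 to 30. The groups do not overlap, and the differences were -0.99 ± 0.13, -1.38 ± 0.11 and -1.35 ± 0.11. Ndufab1, the mitochondrial acyl carrier protein, went from 11.90, 12.37 and 12.40 in normal cord to 10.45 to 11.55 over days 10 to 30, a difference of -1.21 ± 0.16. Ndufa9, one of the steady genes, fell by 0.42, 0.70 and 0.62 in the 3 periods. Ndufa3 and Ndufa12 were not called at day 3 and fell by 1.05 and 1.02 at days 10 to 30. At days 60 to 90 Ndufa3 fell by 1.17 and Ndufb7 by 1.10.

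Assembly factors of complex I did not move as a block. At day 3, 2 of 6 were called higher and 2 lower, where 42.3% and 34.8% of all genes were. Ndufaf1, which helps to build the membrane arm, lay at 7.57, 6.85 and 7.39 in normal cord and at 7.79, 8.04 and 8.12 in the lesion control gap at day 3, above all normal arrays (0.71 ± 0.13). At days 60 to 90 its difference was -0.28 ± 0.11, a call lost without normal replicate 1 (-0.13) or 3 (-0.22). Ndufaf4 rose by 0.41 ± 0.12 at day 3, from 9.16, 8.76 and 9.29 to 9.46, 9.49 and 9.50, and later differences of 0.10 and 0.01 were not called. Ndufaf7, an arginine methyltransferase, fell in all 3 periods, by 0.69, 0.87 and 1.01, and Ndufaf5 by 0.49, 0.83 and 0.88.

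In complex III, 2 of 7 genes were called lower at day 3, 5 at days 10 to 30 and 6 at days 60 to 90. Beside them, 34.8%, 36.2% and 36.6% of all genes were called lower, and the day 3 count does not exceed that share. The core protein Uqcrc1 lay at 11.88, 12.16 and 12.03 in normal cord, at 11.44, 11.52 and 11.55 at day 3, and at 10.86 to 11.24 over days 10 to 30, with no overlap. Its differences were -0.52 ± 0.08, -0.97 ± 0.06 and -0.90 ± 0.07. The other core protein, Uqcrc2, fell by 0.48, 0.56 and 0.53. Uqcrfs1, the Rieske iron-sulfur protein, was not called at day 3 (0.13 ± 0.08) and then fell by 0.46 ± 0.07 and 0.52 ± 0.07. A second probe set of Uqcrc2 gave -0.08 in the gap where the one used gave -0.54, and with the mean of both its differences of -0.21, -0.32 and -0.35 were not called.

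Common complex IV subunits followed complex I, with 3 of 10 called lower at day 3, 9 at days 10 to 30 and 10 at days 60 to 90 (medians -0.30, -0.73 and -0.77). The all-gene shares called lower were 34.8%, 36.2% and 36.6%, so at day 3 the count does not exceed that share. Cox4i1, a regulatory subunit that binds ATP, changed by -0.47 ± 0.16 at day 3 and -0.79 ± 0.13 at days 10 to 30. Cox5a lay at 10.39, 11.15 and 10.55 in normal cord and at 9.05 to 9.89 over days 10 to 30, a fall of 1.17 ± 0.13. Ndufa4, now known as a complex IV subunit, fell by 0.56, 0.77 and 0.81. Cox6a1, Cox6b1 and Cox8a were not called at day 3 and fell by 0.81, 0.50 and 0.69 at days 10 to 30. The day 3 call of Ndufa4 was lost without normal replicate 2 (-0.47), and the days 10 to 30 call of Cox6b1 without normal replicate 2 (-0.36) or 3 (-0.42), within days matched on the histocompatibility gene RT1-CE10 (-0.36) and in the fit of only the groups compared. Cox7a2l fell by 0.25 ± 0.07 at day 3, while its later differences of -0.05 and 0.02 were not called.

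The steady genes gave the same picture with a smaller technical spread. Their median over the 6 genes was below all 3 normal arrays on all 18 lesion control gap arrays (-0.92 to -0.43, median -0.65), on all 18 NT-3 tube gap arrays (-0.925 to -0.47, median -0.66) and on the 3 tube alone gap arrays (-0.75 to -0.58). In lesion control rats it stood at -0.45 ± 0.03 (SD, n = 3) at day 3, -0.90 ± 0.02 at day 10, -0.64 ± 0.08 at day 20, -0.67 ± 0.08 at day 30, -0.85 ± 0.06 at day 60 and -0.47 ± 0.04 at day 90. The days thus have no steady order, with day 10 and day 60 lowest. The day 60 arrays also had drift scores of -14.32 to -7.37, and the part of the score in this was not tested.

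**Figure D2:**
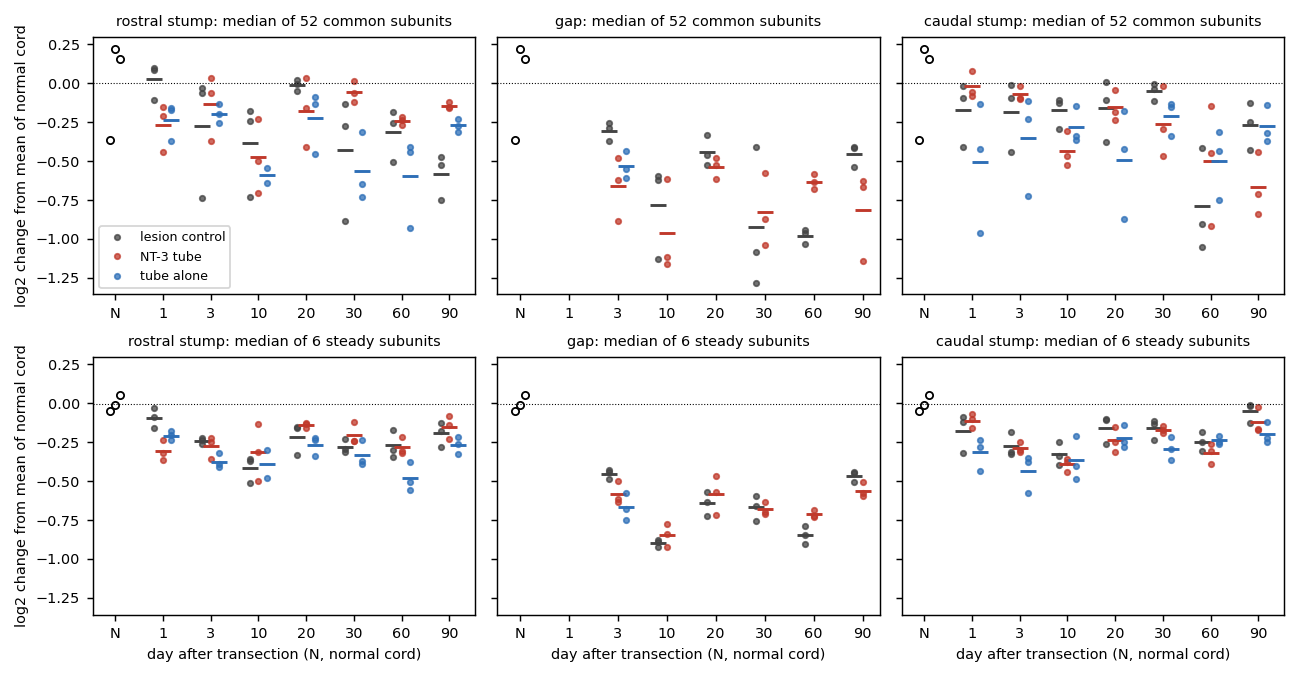
Median log2 difference from normal cord of the 52 common subunits and of the 6 steady genes on each array, by segment, arm and day. The gap arrays of the steady genes lie between -0.925 and -0.43, below the normal arrays at -0.05 to 0.05, and the common subunits spread more widely at the same day.

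The gap of the NT-3 tube arm was low in respiratory chain genes too. At day 3, 46 members were called lower and 4 higher (33.6% and 41.0% of all genes), at days 10 to 30, 52 and 3 (37.2% and 42.2%), and at days 60 to 90, 45 and 2 (35.1% and 40.7%). Median differences were -0.60, -0.74 and -0.69. Ndufa8 lay at 11.72 to 12.18 at day 3, 11.43 to 11.84 at days 10 to 30 and 11.21 to 11.84 at days 60 to 90, all below normal cord, with differences of -1.15, -1.46 and -1.54. Ndufs1 lay at 10.19 to 10.34, 9.75 to 10.14 and 9.69 to 10.23 in these periods. Ndufaf1 and Ndufaf4 again rose at day 3, by 0.61 and 0.44. The day 3 gap of the tube alone arm had 37 members called lower and 4 higher (36.7% and 39.7%), among them Ndufa8 at -1.22, Ndufs3 at -1.14, Ndufb10 at -1.04 and, higher, Ndufaf4 at 0.42 and Ndufaf1 at 0.38 (0.17 and not called without normal replicate 2, and 0.28 without tube alone replicate 1). Without the 6 arrays high in muscle genes, the calls of the NT-3 tube gap were 32 lower and 3 higher at day 3, 55 and 2 at days 10 to 30, and 49 and 2 at days 60 to 90. Over all 7 comparisons of gap with normal cord, 20 members were called lower each time, among them Ndufs1, Ndufs3, Ndufs7, Ndufv1, Ndufv2, Uqcrc1, Uqcrc2 and Cox4i1. For Uqcrc2 this holds for the probe set used, at -0.57 in the NT-3 tube gap, where its second probe set gave -0.18. Cox6b2, which passed the filter on dim genes only through injured groups, was the member called higher in all 7. Leaving out any single array moved none of these 7 counts by more than 1.5 times.

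The stumps held smaller differences, and here the count called turned on which normal arrays were used. In the lesion control rostral stump, 7 members were called lower and 3 higher at days 1 to 3 (30.1% and 28.9% of all genes), 23 and 1 at days 10 to 30 (32.4% and 30.7%), and 40 and 1 at days 60 to 90 (32.5% and 25.4%). Without normal cord replicate 1, 2 or 3 the number called in either direction went from 10 to 17, 6 or 6 at days 1 to 3 and from 24 to 40, 14 or 15 at days 10 to 30. At days 60 to 90 it went from 41 to 23 without replicate 2. In the caudal stump, 10 were lower and 4 higher at days 1 to 3 (30.4% and 30.8%), 10 and 2 at days 10 to 30 (29.3% and 28.0%), and 48 and 2 at days 60 to 90 (28.8% and 24.0%). The last total of 50 became 25 without normal replicate 2 and 32 without replicate 3. With the drift score in the fit, 48, 52 and 39 members were called lower rostrally and 53, 51 and 48 caudally, and with array weights 28, 45 and 56 rostrally and 33, 37 and 55 caudally. The common-subunit medians of single arrays overlapped normal cord: 7 of 21 rostral and 7 of 21 caudal lesion control arrays were below all normal arrays.

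The steady genes were lower in the stumps on nearly every array. Their median was below all normal arrays on 20 of 21 lesion control rostral arrays (-0.51 to -0.03) and 19 of 21 caudal arrays (-0.39 to -0.01). The counts were 21 of 21 and 20 of 21 in the NT-3 tube arm, and 20 of 20 and 21 of 21 in the tube alone arm. Rostral group means of lesion control rats went from -0.09 ± 0.06 (SD, n = 3) at day 1 to -0.41 ± 0.08 at day 10 and -0.19 ± 0.08 at day 90, and caudal ones from -0.18 ± 0.13 to -0.33 ± 0.07 and -0.05 ± 0.06. Day 10 was the lowest day of both stumps. Uqcrc1 lay at 11.66 to 11.99, 11.34 to 11.65 and 11.46 to 11.77 in the rostral stump in the early, middle and late periods, against 11.88, 12.16 and 12.03 in normal cord, and its differences of -0.26 ± 0.08, -0.51 ± 0.07 and -0.41 ± 0.08 were each called. In the caudal stump it changed by -0.29, -0.36 and -0.28. Ndufv1 changed by -0.27, -0.35 and -0.22 rostrally and by -0.30, -0.22 and -0.19 caudally. Ndufs1 changed by -0.27, -0.41 and -0.31 rostrally, all called, and by -0.32 and -0.39 caudally, while the late caudal difference of -0.14 was not called. Single arrays ended some of these calls: Uqcrc1 early rostral without normal replicate 2 (-0.19), Ndufs1 without normal replicate 1 early rostral (-0.19), late rostral (-0.22) and early caudal (-0.23) and without replicate 3 early rostral (-0.25), and Ndufv1 late caudal without normal replicate 2 or 3 or day 90 replicate 3 (-0.17 to -0.15). Uqcrfs1 and Cox7a2l, also steady, were called lower in 0 of the 9 rostral comparisons of the 3 arms, so the low median is not shared by every steady gene. The 3 assembly factors that varied as little on reference RNA are not in this median. Of them, Ndufaf7 was called lower in all 9 rostral comparisons. Ndufaf1 and Ndufaf4 were called lower in 0 and higher in 5 and 4.

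**Figure D3:**
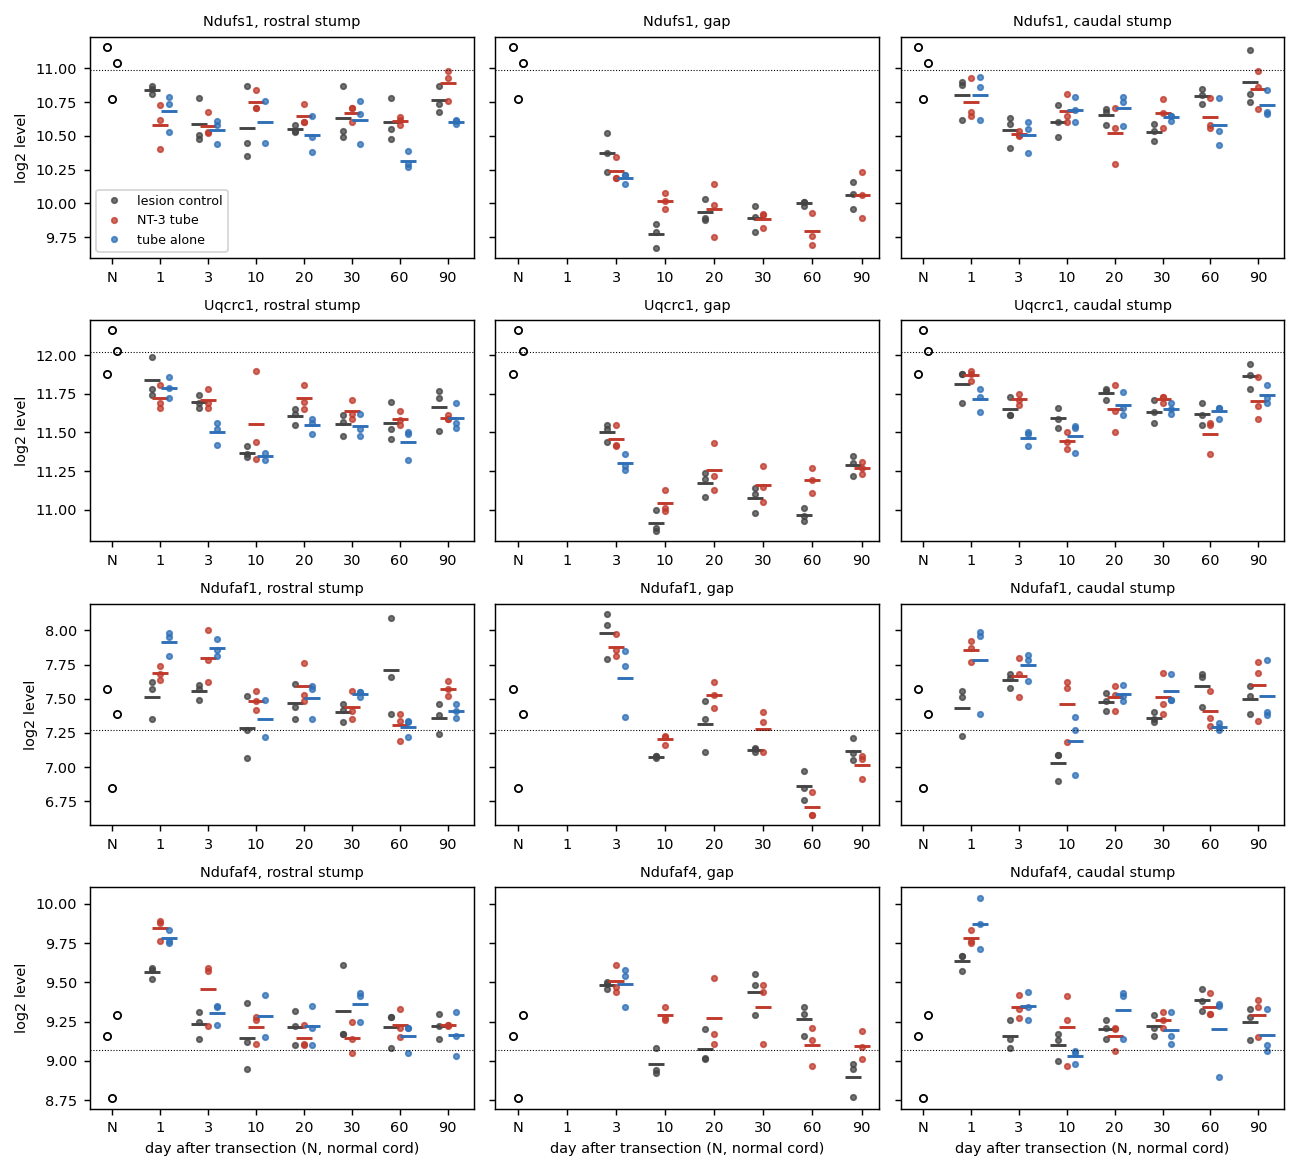
Levels of steady genes by array, segment and day, as log2 RMA signal, with the 3 normal cord arrays for reference. In the gap the arrays of Ndufs1 lie at 9.67 to 10.52 and those of Uqcrc1 at 10.86 to 11.55, below every normal array.

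Of the other stump changes, Cox5a (-0.77 ± 0.14), Ndufa8 (-0.58 ± 0.09) and Ndufab1 (-0.51 ± 0.13) led the falls of the rostral stump at days 10 to 30, beside Cox7a1 and Uqcrc1. At days 60 to 90 the leading falls were Cox7a1, Ndufa3 (-0.81), Ndufa5 (-0.80) and Ndufb7 (-0.74) rostrally and Ndufa3 (-0.87), Cox7a1, Ndufa5 (-0.84) and Ndufb1 (-0.74) caudally. Of these calls, those of Cox7a1 at days 10 to 30 (-0.41) and Ndufa3 at days 60 to 90 (-0.60), both rostral, were lost without normal replicate 2, and that of Ndufb1 without replicate 2 (-0.58) or 3 (-0.61). Ndufa8 was called lower in each of the 25 comparisons with normal cord, as were Ndufs3, Ndufv1, Uqcrc1 and Ndufaf7. Against them, Ndufaf4 was called higher in 13 of the 25 and Ndufaf1 in 11, including days 1 to 3 in the rostral stump of the lesion control arm (0.33 ± 0.09 and 0.26 ± 0.11). Without normal replicate 2 these were 0.17 and 0.05 and not called, and the call of Ndufaf1 was also lost without day 1 replicate 2 or 3 or day 3 replicate 2 or 3 (0.24 to 0.26).

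In the stumps of the NT-3 tube arm the counts were 18 lower and 4 higher (32.8% and 36.2%), 20 and 2 (32.6% and 29.4%), and 14 and 1 (29.5% and 25.6%) rostrally in the early, middle and late periods, and 9 and 5 (31.7% and 34.9%), 24 and 1 (34.1% and 29.3%), and 52 and 1 (32.8% and 25.6%) caudally. In the tube alone arm they were 19 and 5 (35.3% and 32.0%), 39 and 2 (34.8% and 31.4%), and 38 and 2 (35.4% and 29.6%) rostrally, and 34 and 5 (33.4% and 31.8%), 25 and 1 (31.1% and 28.2%), and 32 and 0 (31.4% and 25%) caudally. A fit with the drift score called 53, 51 and 39 members lower rostrally and 53, 53 and 52 caudally in the NT-3 tube arm, and 52, 53 and 51 rostrally and 53, 53 and 48 caudally in the tube alone arm. Single normal arrays moved these totals too. The NT-3 tube total went from 22 to 36, 11 or 11 without normal replicate 1, 2 or 3 rostrally at days 10 to 30, and from 25 to 39, 9 or 13 caudally. It went from 15 to 27 or 9 without replicate 1 or 3 rostrally at days 60 to 90, from 53 to 34 without replicate 2 caudally at days 60 to 90, and from 14 to 9 without replicate 3 caudally at days 1 to 3. The tube alone total went from 24 to 15 without replicate 2 or 3 rostrally at days 1 to 3. Caudally it went from 26 to 40, 13 or 16 without replicate 1, 2 or 3 at days 10 to 30, and from 32 to 50, 18 or 20 at days 60 to 90.

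Ndufa4l2 was the member with the largest rise. It lay at 6.93, 7.20 and 7.16 in normal cord and at 9.39, 10.40 and 10.92 in the lesion control gap at day 3, a difference of 3.14 ± 0.26. At days 10 to 30 it had come down to 7.47 to 8.34 (0.83 ± 0.21), and at days 60 to 90, at 7.07 to 7.67, the difference of 0.34 ± 0.22 was not called. In the NT-3 tube gap it stayed high: 9.20, 9.51 and 9.77 at day 3, 8.67 to 10.31 at days 10 to 30 and 8.39 to 9.51 at days 60 to 90, with differences from normal cord of 2.40, 2.46 and 1.90. The 3 tube alone gap arrays of day 3 lay at 9.29, 9.35 and 9.58. In all, 38 of 39 gap arrays were above all normal arrays. Its stump levels lay at 6.69 to 8.14 rostrally and 6.66 to 8.24 caudally. Against normal cord it was called higher in 2 of 9 rostral and 3 of 9 caudal comparisons of the 3 arms, and lower in 0.

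Between the arms Ndufa4l2 reversed its order after day 3. The NT-3 tube mean was 9.49 against 10.24 in lesion control at day 3, where the arrays overlap, and then 9.0 against 7.79 at day 10, 9.99 against 8.02 at day 20, 9.69 against 7.96 at day 30, 9.27 against 7.26 at day 60 and 8.73 against 7.62 at day 90. From day 10 on the 15 NT-3 tube arrays (8.39 to 10.31) and the 15 lesion control arrays (7.07 to 8.34) did not overlap. Over days 3 to 90 the NT-3 tube minus lesion control difference was 1.21 ± 0.11 (limma adjusted p 8.5e-11). The tube alone gap was lower than lesion control at day 3 by 0.83 ± 0.26 (adjusted p 0.0455). That call was lost in the fit of only the groups compared, with centring, with a second quantile normalization (-0.70), with the drift score (-0.54) and without any of 5 of the 6 arrays, and the difference ranged from -1.25 to -0.49 over single arrays left out (-0.49 without lesion control replicate 3). It was 0.017 without the arrays high in muscle genes. Within days at which the arms share the level of the histocompatibility gene RT1-CE10, which differed between groups, the NT-3 tube difference was 1.65. Skeletal muscle markers moved with the arm: their array mean ranged from 0.49 to 4.73 above normal cord in the lesion control gap (median 2.95) and from -0.54 to 3.73 in the NT-3 tube gap (median 0.59), and their part in the Ndufa4l2 difference was not tested. Without the arrays high in muscle genes the comparison could be made at day 3 alone, on 1 lesion control array, where the difference was -0.19. Pericyte markers, which mark cells known to express Ndufa4l2, had 1 of 6 called higher and 3 lower in the same arm comparison. Over days 3 to 90, that comparison called 23.0% of all genes higher and 19.0% lower. The part of pericytes in the Ndufa4l2 difference was not tested.

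Cox6b2, the testis-type isoform, lay at 5.81, 6.20 and 5.90 in normal cord and at 7.58, 7.84 and 8.29 in the lesion control gap at day 3. All 39 gap arrays (6.48 to 8.76) were above every normal array. The lesion control differences were 1.93 ± 0.31, 2.11 ± 0.25 and 1.25 ± 0.27. It was called higher in 21 of the 25 comparisons with normal cord, and 56 of 62 rostral and 47 of 63 caudal arrays were above all normal arrays. Normal levels lie below the dim threshold, so the size of the rise depends on a background reading. The gene was tested only because injured groups reached that threshold, so a fall could hardly be called. The counts of calls are therefore no separate support for the rise. Its SD on the reference RNA arrays was 0.57. In the gap it was 0.32 ± 0.13 higher in the NT-3 tube arm than in lesion control (adjusted p 0.045), a call lost in the fit of only the groups compared, with the replicate number as a block (0.29), within days matched on RT1-CE10 (0.41) and without the arrays high in muscle genes (0.01).

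The muscle isoforms did not move together. Cox7a1 fell: it lay at 7.73, 8.30 and 8.22 in normal cord and at 6.81, 6.82 and 7.30 in the lesion control gap at day 3 (-1.11 ± 0.23), with -1.1 and -1.05 later, and it was called lower in 23 of the 25 comparisons with normal cord. Cox6a2 and Cox8b varied between arrays in the lesion control gap, from 6.66 to 10.90 and from 5.75 to 10.51 over its 18 arrays, on both sides of their normal levels (7.05 to 8.23 and 6.07 to 7.26). Their differences from normal cord, 0.85 ± 0.75 and 0.76 ± 0.90 at day 3, were not called at any period, and both turned negative at day 3 without replicate 2 (-0.29 and -0.53), the array whose muscle markers were 4.54 above normal cord. In the NT-3 tube gap both were lower than in lesion control, by 1.91 ± 0.30 (Cox6a2, adjusted p 7.21e-06) and 1.76 ± 0.37 (Cox8b, adjusted p 0.00024). All 14 muscle markers were called lower in that same comparison, with a median of -2.20, where 19.0% of all genes were lower. Without the arrays high in muscle genes the differences were -0.22 and -0.09. In the stumps Cox6a2 was called higher than normal cord in 2 of 9 rostral and 3 of 9 caudal comparisons and lower in 0. Cox8b, whose normal levels lie on both sides of the dim threshold, was called lower in 1 rostral and 8 caudal comparisons and higher in 0.

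**Figure D4:**
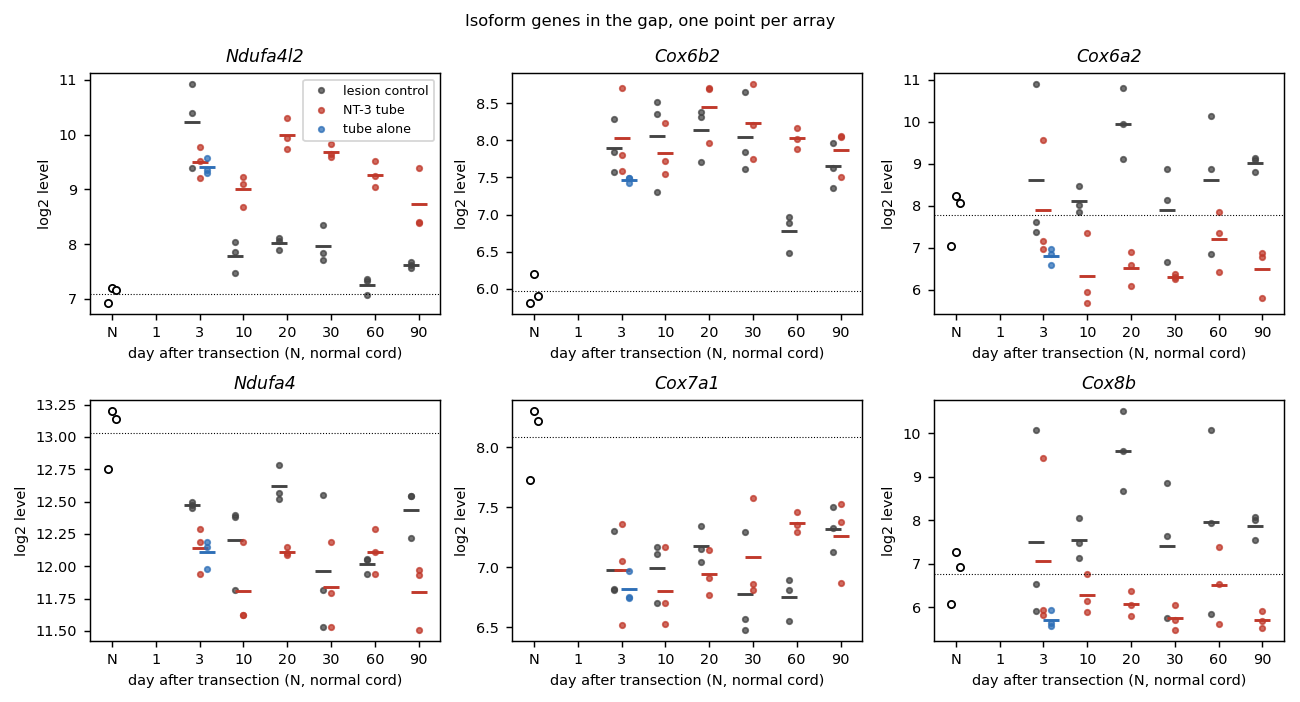
Levels (log2 RMA signal) of tissue isoforms in the gap by day and arm, one point per array, with normal cord. Ndufa4l2 lies at 8.39 to 10.31 in the NT-3 tube arm and at 7.07 to 8.34 in lesion control from day 10 on, and Cox6b2 is above normal cord on all 39 gap arrays.

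In the gap over days 3 to 90, 3 members were called higher and 7 lower in the NT-3 tube arm than in lesion control, against 23.0% and 19.0% of all genes. Beside Ndufa4l2, Cox6b2, Cox6a2 and Cox8b these included Ndufaf7 (0.19 ± 0.03), Ndufa4 (-0.32 ± 0.08) and Ndufa5 (-0.27 ± 0.10). Within days matched on RT1-CE10 the differences of Ndufa4 and Ndufa5 were -0.14 and -0.02 and not called. The total of 10 went to 6 without NT-3 tube day 10 replicate 3, day 60 replicate 3 or day 90 replicate 1, or without lesion control day 10 replicate 2 or day 30 replicate 1, and to 0 without the arrays high in muscle genes, which leaves day 3 alone. With the drift score in the fit it was 27, with 5 higher and 22 lower, and with array weights 24, with 4 higher and 20 lower. At day 3, tube alone minus lesion control called 2 lower and 0 higher by limma (5.22% and 1.88% of all genes, and 15 members at an unadjusted p under 0.05): Ndufa4l2 and Uqcrfs1 (-0.46 ± 0.08). That total was 1 without any of 5 of the 6 arrays and 7 without lesion control replicate 1, while the drift score gave 4 higher and 1 lower and array weights 14 lower. NT-3 tube minus tube alone at day 3 called only Cox5a lower (-0.47 ± 0.16), against 7.47% of genes lower and 16% higher, and the count was 0 without NT-3 tube replicate 2 or 3 or tube alone replicate 3, and 2 without tube alone replicate 1. A fit with the drift score called 24 lower and 1 higher.

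In the stumps, NT-3 tube minus lesion control called none of 63 members in either direction by limma. Rostrally that compares with 1.77% of genes higher and 1.27% lower, with 0 members at an unadjusted p under 0.05, and caudally with 3.95% and 6.25%, and 4 members at an unadjusted p under 0.05. The caudal count was 2 without NT-3 tube day 90 replicate 3 and 1 without NT-3 tube day 10 replicate 1 or lesion control day 1 replicate 3 or day 60 replicate 2. The medians over members were 0.06 and -0.03. A missed threshold does not show that the arms act alike. Tube alone minus lesion control called 6 lower and 2 higher rostrally (18.3% and 12.2%), among them Ndufs3 (-0.14), Ndufa8 (-0.12), Ndufv1 (-0.10), Cox6b2 (0.30) and Ndufa4l2 (0.26), and 39 lower with the drift score or 51 with array weights. Of these calls, that of Ndufs3 was lost in 28 fits that left out 1 array, that of Cox6b2 in 3 and that of Ndufa8 in 1, and without the arrays high in muscle genes 1 member was called, higher. Caudally it called 6 lower and 0 higher by limma (4.99% and 3.66%, with 18 members at an unadjusted p under 0.05), a total that ranged from 3 to 12 (12 without tube alone day 1 replicate 2), led by Ndufs3 (-0.22), Ndufv2 (-0.16), Ndufaf5 (-0.16) and Ndufa9 (-0.13). The call of Ndufv2 was lost in 26 fits that left out 1 array and that of Ndufaf5 in 12, and without the arrays high in muscle genes the count was 0. NT-3 tube minus tube alone called 24 higher and 1 lower rostrally (15.6% and 7.54%), with a median of 0.17 and Ndufa3 (0.30), Ndufa5 (0.26), Ndufb7 (0.25) and Ndufc1 (0.24) in front. Without the arrays high in muscle genes, 6 of them tube alone rostral arrays, 4 were higher and 1 lower, and the call of Ndufb7 was lost in 19 fits that left out 1 array and that of Ndufa3 in 3. It called none caudally by limma (1.96% higher and 1.97% lower, with 7 members at an unadjusted p under 0.05). RT1-CE10, a class I gene, lay near either of 2 levels by group, and within days at which the arms share its level the rostral count of 25 fell to 0. The total of 8 for tube alone minus lesion control rostrally ranged from 4 to 22 as single arrays were left out (22 without lesion control day 30 replicate 3), and that of 25 for NT-3 tube minus tube alone went to 14 without NT-3 tube day 10 replicate 1 and to 15 without tube alone day 10 replicate 1 or day 60 replicate 1.

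Between early and late days the counts turned on whether the drift score was in the fit, so the steady members are given first. From days 1 to 3 to days 60 to 90 the 9 steady members had medians of -0.08 and 0.01 in the rostral and caudal lesion control stumps, with 4 and 0 called lower. In the gap, from day 3 to days 60 to 90, 7 of the 9 were called lower and 1 higher, with a median of -0.34. The median of the 6 steady genes itself ran with the drift score over the gap arrays (r 0.593). The part of the score in these gap calls was not tested. Over all 63 members the lesion control counts were 39 lower and 0 higher rostrally (29.8% and 19.6%), 36 and 1 in the gap (37.9% and 29.3%), and 36 and 1 caudally (28.5% and 21.3%). With the drift score in the fit, an alternative added after the data were seen, these became 8 lower and 17 higher, 12 and 22, and 3 and 15. The caudal total of 37 was 22 without day 3 replicate 3 and 23 without day 60 replicate 2. In the gap the changes that led were Ndufa4l2 (-2.80 ± 0.22), Ndufaf1 (-0.99 ± 0.11), Ndufa12 (-0.89 ± 0.19), Ndufb7 (-0.86 ± 0.22) and, upward, Cox7a2l (0.28 ± 0.06).

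With the drift score more were called higher than lower in the NT-3 tube gap (21 and 14), its rostral stump (39 and 4) and caudal stump (11 and 5) and the tube alone caudal stump (30 and 8), while the tube alone rostral stump had 11 and 17. Without it, the other arms gave 4 lower and 4 higher in the NT-3 tube rostral stump (32.9% and 26.3%), 10 and 1 in its gap (30.3% and 23.7%), 55 and 1 caudally (36.4% and 22.9%), 21 and 1 in the tube alone rostral stump (31.0% and 24.3%), and 5 and 6 caudally (26.4% and 19.3%). The NT-3 tube rostral total of 8 was 5 without day 3 replicate 1, and the tube alone rostral total of 22 was 12 without day 60 replicate 1. In the tube alone caudal stump the falls outnumbered the rises without day 1 replicate 3 (7 and 2), day 3 replicate 3 (7 and 3), day 60 replicate 1 (5 and 4), day 60 replicate 3 or day 90 replicate 2 (5 and 3 each). Ndufaf1 fell by 1.02 ± 0.11 in the NT-3 tube gap, close to its value in lesion control. Ndufa4l2 was not called there (-0.49, adjusted p 0.062), and whether its change differs between the arms was not tested. Between segments of lesion control rats, caudal minus rostral called 1 member of 63, Uqcrc1 (0.09 ± 0.03), against 3.56% of genes higher and 3.53% lower, and none by limma without day 90 replicate 2 of either stump. Gap minus rostral over days 3 to 90 called 47 lower and 4 higher (37.3% and 45.9%), with Ndufa8 (-0.71 ± 0.05), Ndufs1 (-0.61 ± 0.04), Ndufab1 (-0.55 ± 0.07) and Ndufa12 (-0.53 ± 0.09) lowest and Cox8b, Cox6b2, Ndufa4l2 and Cox6a2 higher. Without the arrays high in muscle genes that comparison rests on 1 gap array, and called 5 lower and 1 higher. There Ndufa12 (0.077), Cox8b (-0.08) and Cox6a2 (-0.80) lay on the other side of 0.

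Other genes of mitochondrial energy supply fell in the gap as well. In lesion control rats at days 10 to 30, 12 of 14 ATP synthase genes were called lower and 0 higher (median -0.50), among them Atp5f1c (-0.76 ± 0.07) and Atp5mc3 (-0.75 ± 0.10). Of all genes, 36.2% were called lower there and 41.7% higher. All 4 genes of complex II, the succinate dehydrogenase, were lower, as Sdhc (-0.65) and Sdha (-0.54). Of 14 genes of pyruvate dehydrogenase and the citric acid cycle, 12 were lower and 1 higher (median -0.75), with Idh3a at -1.90 ± 0.09 and Mdh2 at -1.0 ± 0.07. Cyc1, the cytochrome c1 of complex III, fell by 0.98. Of 20 assembly genes of complexes III and IV, 15 were lower and 1 higher, with Cox19 (-1.08) and Lrpprc (-0.96) in front. Of 12 import and carrier genes, 8 were lower and 1 higher, as Vdac1 (-0.74) and Tomm40 (-0.68). Regulators of mitochondrial biogenesis were near the shares of all genes, with 6 of 12 higher and 4 lower. The coactivator Ppargc1a fell by 2.87 ± 0.21 and Gabpa rose by 0.97 ± 0.13. Of 4 creatine kinases, mitochondrial Ckmt1 fell by 4.63 ± 0.44 and muscle Ckm rose by 3.22 ± 0.73.

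At day 3 of the lesion control gap, 9 of 18 glycolysis genes were called higher and 5 lower (median 0.18), near the 42.3% and 34.8% of all genes (median 0.11), with Ldha, lactate dehydrogenase A, at 3.13 ± 0.10 and Aldoc, a brain aldolase, at -3.61 ± 0.40. Of 10 hypoxia-response genes 8 were higher and 1 lower (median 0.85), with Adm at 3.87 ± 0.23 and Car9 at 2.50 ± 0.29. At days 10 to 30, 2 glycolysis genes were higher and 15 lower, and 2 hypoxia genes higher and 6 lower. Of all genes, 41.7% were higher then and 36.2% lower. In the arm comparison of the gap over days 3 to 90, where Ndufa4l2 was higher with the NT-3 tube, 7 of 10 hypoxia genes were also higher and 0 lower (Car9 1.00 ± 0.12, Egln3 0.72 ± 0.10), as were 12 of 18 glycolysis genes, with 4 lower (Hk2 0.61 ± 0.09, Slc2a1 0.56 ± 0.05), where 23.0% and 19.0% of all genes were. The part of low oxygen or of muscle content in these arm differences was not tested. Car9 was at -0.46 and Egln3 at -0.13 without the arrays high in muscle genes, at day 3 on 1 lesion control array. None of the 14 ATP synthase and 4 complex II genes was called there by limma, with 2 and 0 at an unadjusted p under 0.05.

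Cell type markers moved beside all of these results, and their part in them was not tested. In the lesion control gap at days 10 to 30, all 13 neuron markers were lower (median -3.22), 8 of 9 oligodendrocyte markers were lower (-3.06) and 7 of 8 astrocyte markers were lower (-1.40). There 36.2% of all genes were called lower and 41.7% higher. All 10 microglia and macrophage markers (2.03) and all 7 fibroblast markers (4.53) were higher, and 12 of 14 muscle markers were higher with 1 lower (3.39). In the rostral stump at days 10 to 30 all 13 neuron markers were lower (-1.09) and 7 of 9 oligodendrocyte markers were lower (-0.43). Of all genes, 32.4% were called lower and 30.7% higher in that stump. All 10 microglia and macrophage markers (2.48) and all 7 fibroblast markers (3.10) were higher there. Among pathway genes of that stump Idh3a (-0.81 ± 0.07), Atp5f1b (-0.46 ± 0.06), Cyc1 (-0.48), Ppargc1a (-0.93 ± 0.15) and Ckmt1 (-1.37 ± 0.14) were lower and Ldha (1.20 ± 0.10), Hk2 (1.28 ± 0.15) and Adm (1.24 ± 0.16) higher.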

How the data were processed

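The series holds 172 Affymetrix rat whole-genome arrays (164 injured cord, 3 normal cord, 5 reference RNA). The deposited log2 values were made by the authors with Affymetrix Expression Console and RMA, per the submitters' processing notes, whose version numbers the sources used here do not give. Of 31099 probe sets, 20832 have 1 symbol in the platform annotation, 436 have several and 9831 are unlisted; 5 probe sets that members share with other genes were not used. A gene took the probe set with the highest mean over cord arrays, and 5 members had several. Genes were tested where a group mean reached the 40th percentile of cord values (6.55).

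Group means were fitted with limma 3.58.1 in R 4.3.3 for each segment with normal cord (65 rostral, 42 gap, 66 caudal arrays) and for lesion control segments together (60 arrays). Periods are contrasts of group means, and p-values were adjusted over all genes of a fit. Of 44 comparisons, 25 share the normal arrays. Scripts were tested on simulated data. Tables, promoters and figures used matplotlib 3.10.9, scipy 1.17.1, pandas 2.3.3 and numpy 2.4.6 under Python 3.11.15. Replicate numbers were checked for pairing: in 22 of 59 NT-3 tube and lesion control pairs and 56 of 163 pairs with normal cord the deviations correlated above 0.1, so they were not treated as pairs. Rostral and caudal samples of the same arm, day and number did so in 32 of 62 pairs. Segments were also compared unpaired. With day and replicate number as a block, caudal minus rostral still called 1 member and gap minus rostral 51.

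Named genes are, by rule, the 4 largest called rises and falls of a comparison, a fixed set of core subunits and isoforms, and the 2 largest called changes of each of 10 pathway lists; 10 marker lists were also used (197 of 213 entries matched). Members and lists were chosen with earlier results of these data known. Alternatives changed the filter, normalization, centring, variance model, array weights, block, arrays fitted, probe set rule, days and arrays, and one, the drift score as covariate, was added after the data were seen.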

Additional observations from a re-analysis of the deposited data

Results flagged for a closer look

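On the 5 reference RNA arrays the median of the common subunits had 1 array that stood apart: array 5 lay at -0.61 and its gap to the next array was 0.725 of the whole range. Chance gives such a gap in about 1 in 20 groups. Taken singly, 23 of 61 members also had an array that stood apart, but these members make up the median and share the 5 arrays, so they add no separate evidence.

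Differences between arms or segments were tested for 4 isoforms with limma. In the gap over days 3 to 90, NT-3 tube minus lesion control was -1.91 for Cox6a2, -1.76 for Cox8b, 0.32 for Cox6b2 and 1.21 for Ndufa4l2, all called. In lesion control rats over the same days, gap minus rostral stump was 0.77 for Cox6a2, 1.78 for Cox8b, 1.01 for Cox6b2 and 0.99 for Ndufa4l2, all called. Without the arrays high in muscle genes NT-3 tube could be compared with 1 lesion control array at day 3 alone, where the differences were -0.19 for Ndufa4l2, -0.22 for Cox6a2, -0.09 for Cox8b and 0.01 for Cox6b2. Gap minus rostral stump, again on 1 gap array, was then -0.80 for Cox6a2 and -0.08 for Cox8b. Skeletal muscle markers moved in both comparisons, and their part in these differences was not tested.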

How the results depend on the processing

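Counts are members called of 63 tested, and the cause of each move was not tested. With array weights the counts against normal cord became, by period, 32 and 46 (days 1-3 and 10-30) in the lesion control rostral stump, 40 in its gap at day 3, 36 and 40 in its caudal stump, 50, 55 and 49 in the NT-3 tube rostral stump, 28 and 49 in its caudal stump, 48 at days 1-3 in the tube alone rostral stump and 59, 55 and 56 in its caudal stump. Between arms, array weights gave 2 (NT-3 tube minus lesion control), 55 (tube alone minus lesion control) rostrally, 24, 14 and, for NT-3 tube minus tube alone, 2 in the gap, and 5 and 19 caudally. They gave 17 for late minus early NT-3 rostral, 18 for tube alone caudal and 4 for caudal minus rostral.

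With the drift score of the reference RNA as covariate, added after the data were seen, the counts against normal cord rose to 51 and 54 in the lesion control rostral stump, 58 in its gap at day 3, 57 and 53 caudally, 56, 53 and 40 in the NT-3 tube rostral stump, 57 and 56 caudally, 57 at days 1-3 in the tube alone rostral stump and 54 and 50 (days 10-30 and 60-90) caudally. Between arms it gave 41 for tube alone minus lesion control rostrally, 27, 5 (4 higher, a turn in direction) and 25 in the gap, and 3 for NT-3 tube minus lesion control caudally. The late minus early counts turned to mostly higher, with 25, 34 and 18 called in lesion control rostral, gap and caudal samples and 35 and 16 in the NT-3 tube gap and caudal stump; they were 43 in the NT-3 tube rostral stump and 38 in the tube alone caudal stump. Caudal minus rostral turned to 4, with 3 lower.

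Without arrays high in muscle genes, 17 members were called in the lesion control gap at day 3, 13 in the NT-3 tube rostral stump at days 10-30, 23 in the tube alone caudal stump at days 1-3 and 6 for gap minus rostral. Between arms the counts were 1 (higher, a turn) and 5 rostrally for tube alone minus lesion control and NT-3 tube minus tube alone, 0 in all 3 gap comparisons and 0 for tube alone minus lesion control caudally. Late minus early counts were 3 in the NT-3 tube gap, 12 in the tube alone rostral stump and 14 (12 lower, a turn) in its caudal stump. No lesion control gap arrays were left at days 10-30 and 60-90, so those fits were not run.

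In days matched on RT1-CE10 the counts were 15 and 42 at days 10-30 in lesion control and NT-3 tube rostral stumps, 15 and 16 in tube alone rostral (days 1-3) and caudal (days 60-90) stumps, 2 and 0 for tube alone minus lesion control and NT-3 tube minus tube alone rostrally, 6 (4 higher, a turn) for NT-3 tube minus lesion control in the gap and 2 for NT-3 tube minus tube alone caudally. With only the groups compared they were 15 in the lesion control rostral stump at days 10-30, 23 in the tube alone caudal stump at days 1-3, 42 for NT-3 tube minus tube alone rostrally, 0 in both gap comparisons with tube alone, 1 for NT-3 tube minus lesion control caudally, and 16 and 9 (6 lower, a turn) for late minus early NT-3 tube rostral and tube alone caudal. Centring and a second quantile normalization each gave 4 for tube alone minus lesion control rostrally and 1 in the gap. Keeping dim genes gave 3 for NT-3 tube minus tube alone in the gap. One fit over all cord arrays gave 6 for tube alone minus lesion control in the gap, 1 for NT-3 tube minus lesion control caudally and 18 for late minus early NT-3 tube gap. The other alternatives (eBayes settings, mean of probe sets, replicate block) moved no count beyond 1.5 times.

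Leaving out 1 array at a time gave these ranges against normal cord, by period. Lesion control had 6 to 17, 14 to 40 and 23 to 51 rostrally, 19 to 37, 43 to 55 and 40 to 56 in the gap, and 10 to 21, 8 to 16 and 25 to 55 caudally. NT-3 tube had 15 to 33, 11 to 36 and 9 to 27 rostrally, 38 to 57, 45 to 60 and 43 to 57 in the gap, and 9 to 15, 9 to 39 and 34 to 56 caudally. Tube alone had 15 to 36, 30 to 53 and 27 to 48 rostrally, 31 to 49 in the gap at day 3, and 27 to 52, 13 to 40 and 18 to 50 caudally. For NT-3 tube minus lesion control, tube alone minus lesion control and NT-3 tube minus tube alone the ranges were 0 to 0, 4 to 22 and 14 to 35 rostrally, 6 to 13, 1 to 7 and 0 to 2 in the gap, and 0 to 2, 3 to 12 and 0 to 2 caudally. Late minus early ranged over 26 to 48, 30 to 37 and 22 to 45 in lesion control, 5 to 9, 8 to 15 and 48 to 57 in NT-3 tube, and 12 to 27 and 8 to 13 in tube alone stumps. Caudal minus rostral ranged over 0 to 1 and gap minus rostral over 48 to 57.

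Single genes turned in sign as follows (log2 differences). In the lesion control gap at day 3, Cox6a2 was -0.41 without muscle-high arrays, -0.19 with the drift score and -0.29 without replicate 2, and Cox8b was -0.85, -0.33 and -0.53, the last in a range of -0.53 to 1.56 over arrays left out. Ndufaf4 in that gap at days 10-30 was -0.086 with array weights, -0.042 in days matched on RT1-CE10 and -0.059 to 0.21 with single arrays left out, the lowest without normal replicate 2. At days 60-90 Ndufaf4 was -0.013 with centring, -0.19 with array weights, -0.023 with the drift score, and -0.14 to 0.12 with single arrays left out, below 0 without normal replicate 2, day 60 replicate 3 or day 90 replicate 3. Cox7a2l there was -0.005 with centring, -0.0027 with array weights and -0.018 to 0.057 with single arrays left out, the lowest without normal replicate 1. Without muscle-high arrays, NT-3 tube minus lesion control in the gap was -0.19 for Ndufa4l2, -0.46 for Car9 and -0.13 for Egln3, tube alone minus lesion control at day 3 was 0.017 for Ndufa4l2, and gap minus rostral was 0.077 for Ndufa12, -0.08 for Cox8b and -0.80 for Cox6a2.

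With the replicate number as a block, Cox6b2 in the gap (NT-3 tube minus lesion control 0.29) and Ndufv2 in the caudal stump (tube alone minus lesion control -0.16) lost their calls, and no other named result did. Same-numbered samples deviated together (correlation above 0.1) in 32 of 62 rostral and caudal pairs and 17 of 38 rostral and gap pairs. The precision of all counts is limited by 3 arrays in a group, 2 in 1 group.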

Other observations

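Among the other members, second probe sets did not always give the value of the brighter one used. In the lesion control gap the second probe set of Ndufa7 gave -1.40 where the one used gave -0.25, and that of Ndufv3 gave -0.0006 where the one used gave -0.51. The second probe set of Uqcrc2 gave 0.51 and 0.47 in the rostral and caudal stumps of lesion control rats where the one used gave -0.07 and -0.04. Which transcript or which part of the gene each probe set reads was not tested.

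Limits apply to all of these values. The 3 normal arrays serve every comparison with normal cord, and leaving out 1 of them moved many stump counts. Each injured array is a pool of 4 animals, so differences between animals are not seen. The gap took the place of 5 mm of removed cord, and fewer cells of a type and less RNA per cell cannot be told apart there. Messenger RNA says nothing of complex content or respiration, and the genes that the mitochondrial genome encodes are not analysed here.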
